A study of Mus musculus with 21 samples.

Results

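The response common to all treated lungs was measured as the average of 2 differences, that of propylene glycol (PG) lungs from saline lungs and that of vitamin E acetate (VEA) lungs from 10% ethanol lungs. All 21 libraries of the study enter it, grouped by their titles: 15 from treated lungs and 6 from control lungs. Each arm carries the same weight, and each dose carries the same weight within its arm. PG is a solvent of e-cigarette liquids, and VEA is an oily thickener found in some cannabis vaping products. C57BL/6 mice received PG at 826 or 1100 with saline as control, or VEA at 3.12, 6.25 or 12.5 with 10% ethanol as control. There were 3 animals in each of the 7 groups and 1 library per animal. Every animal, controls included, was given 50 µL into the trachea once a day for 14 days and was killed on day 15, and the lung was taken after its airspaces had been washed. Cells loose in the airspaces were therefore partly removed before the RNA was made. Doses carry no unit here, because the labels write mg/kg where the description of the series writes mg/mL for identical numbers. What VEA was given in is not stated in the labels, and age and sex are not given. Y-linked genes had more than 10 counts in each of the 21 libraries, which is what male mice give.

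Injury of the lung by an inhaled or instilled material is known to follow a common course. Macrophages take up debris and lipid in their lysosomes, monocytes enter from the blood and mature, fibroblasts lay down collagen and elastic matrix, and the secretory and ciliated cells of the airway lose specialised functions while the epithelium is repaired. Club cells of the airway carry much of the lung's cytochrome P450 machinery, and macrophages that handle lipid are known for genes such as Gpnmb, Ctsk and Msr1.

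Libraries held 8778028 to 11783151 counts and 14843 to 15992 genes with at least 1 count, and 5 CPM, a count scaled to library size, stood for 41.07 to 64.81 counts. The chi-square per degree of freedom between animals of a group was 8.14 to 40.5, well above the value near 1 that counting error gives. Levels are CPM scaled by TMM library factors, and since the reads come from transcript ends they are compared within a gene only. Summed levels of a list add CPM over its genes, and the most abundant genes weigh most in them. Changes are log2 fold changes ± SE with adjusted p from edgeR's quasi-likelihood test with Benjamini-Hochberg adjustment over 14727 genes, called below 0.05. In bulk lung, fewer cells of a type and less RNA per cell cannot be told apart. The haemoglobin genes took 4.54% to 9.06% of counts in PG-treated lungs and 6.49% to 13.8% in saline lungs. They took 4.06% to 7.85% in VEA-treated lungs and 8.49% to 10.5% in ethanol lungs. Saline animal 8, ethanol animal 13 and VEA 6.25 animal 65 had the fewest detected genes, and without these 3 libraries the averaged response held 895 higher and 734 lower genes. Without Rn45s, a ribosomal precursor, and the haemoglobin genes, the averaged response held 1190 higher and 1049 lower genes.

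In the averaged response, 1177 genes were higher (7.99% of those tested) and 1081 were lower (7.34%). Lists with most of their tested genes called higher included those of recruited and lipid-handling macrophages, lysosomes, collagens and other matrix, CC chemokines and cell division. Lists with most of their genes called lower included those of club cells, ciliated cells, xenobiotic enzymes, capillary endothelium, mesothelium and red cells. An average can be carried by a single arm, so each arm was also tested on its own. The PG arm had 238 higher (1.62%) and 163 lower genes (1.11%), and the VEA arm had 895 higher (6.08%) and 820 lower genes (5.57%). Of the 2258 genes called in the average (15.3%), 246 were called in both arms in the same direction, 1165 in the VEA arm alone, 134 in the PG arm alone and 713 in neither arm. The arms share no library. The 246 genes called in both arms (1.67%) made up 61.3% of the PG arm's calls and 14.3% of the VEA arm's calls, with 136 higher (0.923%) and 110 lower (0.747%). Leaving out saline animal 8 left 74 higher and 52 lower genes called in both arms, and leaving out saline animal 10 left 75 and 53. Of the genes called in the PG arm, 93.3% had a VEA estimate in the same direction, against 65.2% of all genes tested. The VEA arm's calls had a PG estimate in the same direction in 89.9%. Across all genes the 2 arms' log2 fold changes had Pearson's r of 0.32 and Spearman's rho of 0.39, with each point a gene measured in the same libraries, so genes are not independent replicates. The median absolute change of the 246 genes was 0.90 in the VEA arm and 0.84 in the PG arm. Because these genes were chosen by a call in each arm, the medians do not compare the strength of the agents. Between treated and control lungs 111 of the 246 genes had no overlap in either arm, as did 1.26% of all genes tested.

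**Figure D1:**
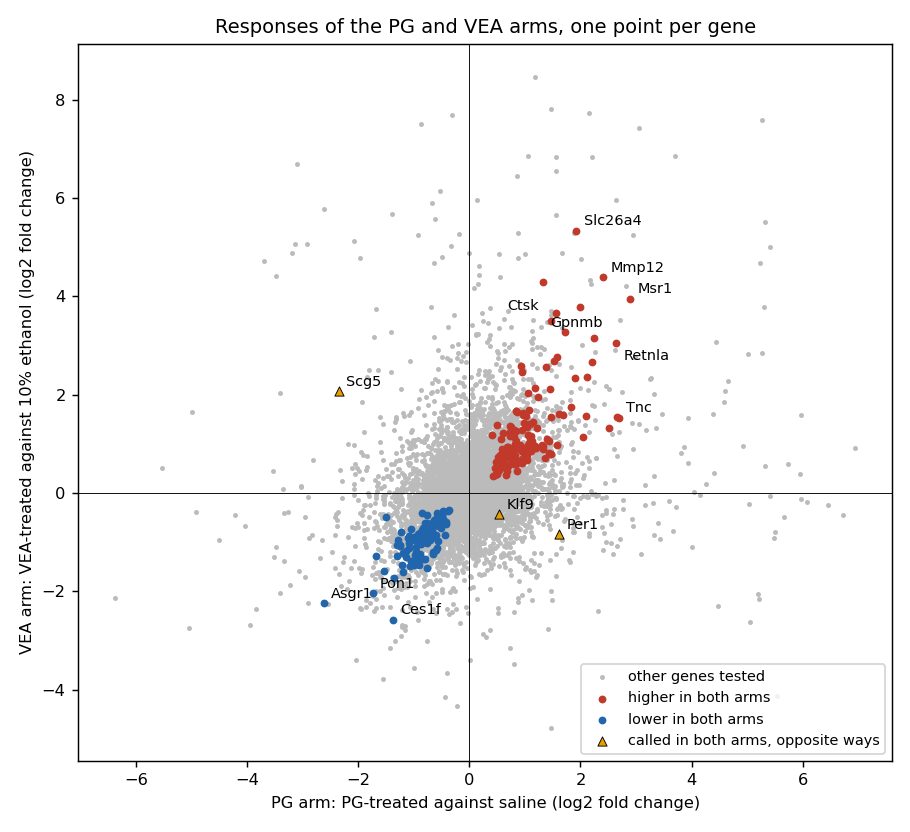
Each point is a gene, with the log2 fold change of PG-treated against saline lungs on the horizontal axis and that of VEA-treated against ethanol lungs on the vertical axis. Red points were called higher in both arms (136 genes), blue points lower in both arms (110 genes), and the 3 triangles were called in opposite directions.

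Genes named as leading rises were called in both arms, with at least 5 CPM on the higher side and no overlap in either arm. The lack of overlap of each leading gene is thus part of the choice. Among the 58 higher genes that met these criteria, the largest rises were in macrophage genes. Slc26a4, an anion exchanger described below, rose more in the averaged response but overlapped in the PG arm. Msr1 (chr8:39543232-39642750, GRCm38.p6 as are all positions here), a scavenger receptor that takes up modified lipoprotein, had 3.12, 11 and 38.4 CPM in PG-treated lungs (lowest, median and highest of 6), against 0.0987, 1.46 and 3.11 CPM in saline lungs. It had 18.1, 22.9 and 33.1 CPM in VEA-treated lungs (lowest, median and highest of 9), against 1.43, 2.27 and 0.755 CPM in ethanol lungs. The lowest PG-treated lung was almost level with the highest saline lung, while the VEA-treated lungs stood well clear of ethanol. Its change in the averaged response was 3.43 ± 0.36 (adjusted p = 2.07e-06). Gpnmb (chr6:49036518-49058182), a glycoprotein of lipid-loaded macrophages, had 15.5, 19.6 and 101 CPM in PG-treated lungs and 9.37, 3.90 and 6.42 CPM in saline lungs. It had 49.2, 72.6 and 105 CPM in VEA-treated lungs and 10.5, 6.59 and 8.63 CPM in ethanol lungs. Neither arm overlapped its controls, and the averaged change was 2.70 ± 0.31 (adjusted p = 2.90e-05). Ctsk (chr3:95499210-95509387), the collagen-degrading lysosomal protease cathepsin K, had 31.3, 43.8 and 159 CPM in PG-treated lungs and 21, 23.5 and 20.7 CPM in saline lungs. It had 149.6, 184 and 238 CPM in VEA-treated lungs and 22.7, 11.7 and 15.9 CPM in ethanol lungs. Its averaged change was 2.48 ± 0.24 (adjusted p = 4.62e-06), made of 1.47 ± 0.33 in the PG arm and 3.50 ± 0.36 in the VEA arm, a difference between arms that did not pass (adjusted p = 0.0721). Ms4a7 (chr19:11321039-11336146), a membrane protein of monocyte-derived macrophages, had 5.70, 8.89 and 14.4 CPM in PG-treated lungs and 1.28, 3.04 and 3.21 CPM in saline lungs. It had 9.57, 18.7 and 28 CPM in VEA-treated lungs and 4.50, 4.10 and 1.83 CPM in ethanol lungs, with no overlap in either arm and an averaged change of 2.12 ± 0.22 (adjusted p = 6.35e-09).

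Retnla and Ccl8, genes of type 2 inflammation, also led the rises. Retnla (chr16:48842609-48844461), a secreted protein of alternatively activated macrophages, had 217, 615 and 1349 CPM in PG-treated lungs and 122, 66.1 and 98.8 CPM in saline lungs. It had 591, 925 and 1197 CPM in VEA-treated lungs and 128, 125 and 82.5 CPM in ethanol lungs. All 15 treated lungs lay above all controls of their arm, and the averaged change was 2.85 ± 0.24 (adjusted p = 1.04e-06). Ccl8 (chr11:82115185-82116799), a chemokine that draws in monocytes and type 2 T cells in mice, had 5.21, 24.1 and 38.3 CPM in PG-treated lungs and 4.44, 3.90 and 3.41 CPM in saline lungs. It had 14.5, 30.3 and 48.8 CPM in VEA-treated lungs and 2.20, 9.50 and 4.32 CPM in ethanol lungs, and the averaged change was 2.24 ± 0.29 (adjusted p = 2.89e-05). The other leading rises were Tnc, which encodes the repair matrix protein tenascin-C, at 2.11 ± 0.25 (adjusted p = 1.22e-06), and Wfdc21, at 2.10 ± 0.19 (adjusted p = 4.65e-07). Lrg1, a secreted glycoprotein of the acute phase, rose by 1.83 ± 0.21 (adjusted p = 1.65e-05). Spc25, a kinetochore protein of dividing cells, rose by 1.79 ± 0.29 (adjusted p = 7.14e-05), and Clec4n, which encodes the fungal receptor dectin-2, by 1.79 ± 0.13 (adjusted p = 5.40e-11). Fkbp5, a co-chaperone of the glucocorticoid receptor and its target, rose by 1.60 ± 0.17 (adjusted p = 9.63e-09). Among rises without overlap in either arm, the smallest adjusted p belonged to C1qa, a chain of complement C1q made by tissue macrophages, at 1.28 ± 0.10 (adjusted p = 3.42e-11). All 24 leading rises and falls stayed called in the averaged response in every one of 30 alternatives, which include leaving out each library. The call in both arms was lost under some alternative by 11 of the 24. With each arm fitted alone, Msr1, Gpnmb, Ctsk and Spc25 lost it among the rises. Ces1f, Spag16, Dnaic1 and Ccdc154 lost it in that setting among the falls. Spc25 also lost it with limma-voom (adjusted p = 0.174) and with the vehicles exchanged between the arms (adjusted p = 0.173). With single libraries left out, Gpnmb lost it without saline animal 8 (adjusted p = 0.0908) or saline animal 10 (adjusted p = 0.073). Ctsk lost it without saline animal 6 (adjusted p = 0.0803), saline animal 8 (adjusted p = 0.106), saline animal 10 (adjusted p = 0.115) or PG 826 animal 23 (adjusted p = 0.0676). Ccl8 lost it without saline animal 8 (adjusted p = 0.0688) or saline animal 10 (adjusted p = 0.0706), and Spc25 without saline animal 8 (adjusted p = 0.126) or saline animal 10 (adjusted p = 0.0917).

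**Figure D2:**
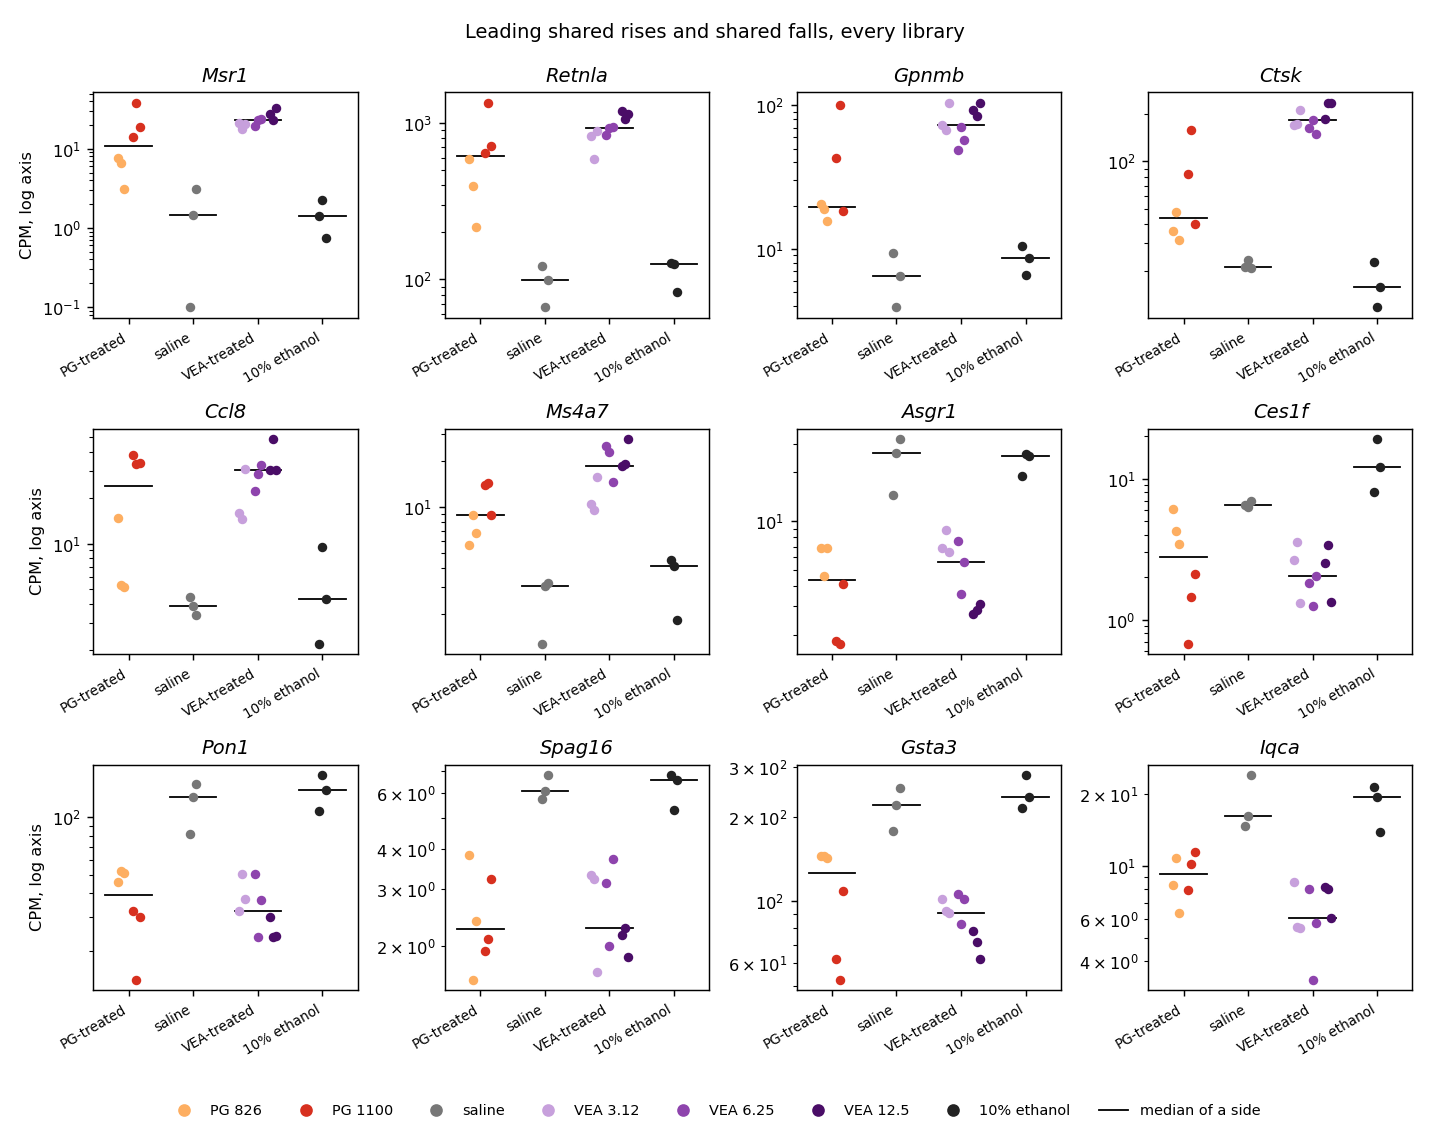
Each point is a library, in CPM on a log axis, with treated lungs left of their controls in each arm. Shown are 6 of the leading rises and 6 of the leading falls. Genes were chosen so that no treated library overlaps its arm's controls.

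Receptors and degradation genes of lipid-handling macrophages rose together. Of 22 such genes tested, 17 rose and 1, Cd36, fell in the averaged response, and 8 rose in both arms, with a median of 0.65 where the median of all genes was -0.0004. Mmp12, the elastin-degrading protease of macrophages, had 2.96, 10.4 and 40.0 CPM in PG-treated lungs and 1.48, 1.83 and 3.21 CPM in saline lungs, which overlapped. It had 34.8, 53.4 and 57.5 CPM in VEA-treated lungs and 2.63, 0.648 and 3.56 CPM in ethanol lungs, which did not, and its averaged change was 3.40 ± 0.31 (adjusted p = 4.05e-07). Trem2, a lipid-sensing receptor of macrophages, rose by 2.02 ± 0.35 in the averaged response (adjusted p = 3.32e-04) but was not called in both arms. The summed level of the 22 genes was 5458 to 11858 CPM in PG-treated lungs and 4595 to 5400 CPM in saline lungs. It was 6559 to 8215 CPM in VEA-treated lungs and 4873 to 5151 CPM in ethanol lungs. Among 25 lysosome genes, which partly overlap that list, 17 rose, none fell and 8 rose in both arms, with a median of 0.46. Cd68, a lysosomal membrane protein of macrophages, had 28.2, 59.2 and 150.2 CPM in PG-treated lungs and 30.2, 37.1 and 28.5 CPM in saline lungs. It had 65, 91.7 and 109 CPM in VEA-treated lungs and 33.8, 33.4 and 32.4 CPM in ethanol lungs, and its averaged change was 1.2 ± 0.14 (adjusted p = 3.82e-07). Lipa, the acid lipase that frees cholesterol from its esters, rose by 0.98 ± 0.11 (adjusted p = 4.11e-08), Ctsd, a lysosomal aspartic protease, by 0.98 ± 0.13 (adjusted p = 6.70e-06), and Atp6v0d2, a subunit of the proton pump, by 1.29 ± 0.14 (adjusted p = 2.51e-07).

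Markers of recruited monocytes and macrophages rose in 15 of 20 genes and fell in none, with 4 called in both arms and a median of 0.68. C1qb, a further chain of C1q, rose by 1.25 ± 0.15 (adjusted p = 4.36e-06), and Arg1, the arginase of alternatively activated macrophages, by 1.68 ± 0.39 (adjusted p = 0.00583). Arg1 was not called in both arms. The summed level of this list overlapped in the VEA arm, at 1828 to 2571 CPM in VEA-treated lungs and 1475 to 2365 CPM in ethanol lungs. Its median was lower in VEA-treated lungs (1978 CPM) than in ethanol lungs (2061 CPM), so the sum did not rise there. It also overlapped in the PG arm, at 1664 to 2834 CPM in PG-treated lungs and 1385 to 1782 CPM in saline lungs. The medians there were 1890 CPM in PG-treated and 1507 CPM in saline lungs. Of 17 resident alveolar macrophage genes 7 rose (41.2%, against 7.99% of all genes tested), 1 fell and 3 rose in both arms, while the median was 0.08. Their summed level was 2509 to 3912 CPM in PG-treated lungs and 1768 to 2693 CPM in saline lungs, which overlapped. It was 2912 to 3383 CPM in VEA-treated lungs and 2214 to 2446 CPM in ethanol lungs, which did not. Chil3, a chitinase-like protein abundant in alveolar macrophages, had 837, 1009.8 and 1423 CPM in PG-treated lungs and 376, 590.1 and 549.9 CPM in saline lungs. It had 839.8, 962 and 1098 CPM in VEA-treated lungs and 529, 488 and 456 CPM in ethanol lungs, and rose by 1.01 ± 0.10 (adjusted p = 2.06e-09). Marco, a scavenger receptor of those cells, rose by 1.71 ± 0.25 (adjusted p = 2.16e-04), and Cidec, a lipid droplet protein, changed by -0.80 ± 0.15 (adjusted p = 1.82e-04). Neither Marco nor Cidec was called in both arms. Of 17 complement genes, 7 rose, 1 fell and 4 rose in both arms (median 0.28), among them C3ar1, the receptor of C3a, at 1.38 ± 0.20 (adjusted p = 5.09e-06). C3ar1 lost its call in both arms under 7 of 31 alternatives, and C1qb, also in this list, under 10 of 31.

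Genes of the extracellular matrix rose together in the averaged response. Of 17 collagen genes, 12 rose and none fell in the averaged response, 6 rose in both arms, and the median was 0.58. Col1a1, a chain of fibrillar collagen I, had 139, 217 and 415 CPM in PG-treated lungs and 113, 64.6 and 59.2 CPM in saline lungs. It had 159.8, 207 and 284 CPM in VEA-treated lungs and 112, 136 and 117 CPM in ethanol lungs, with no overlap in either arm. Its averaged change was 1.14 ± 0.12 (adjusted p = 2.04e-07). Col3a1 rose by 0.80 ± 0.10 (adjusted p = 1.18e-07) and Col5a1, which regulates fibril size, by 0.82 ± 0.16 (adjusted p = 5.96e-04). Col3a1 was called in both arms and Col5a1 was not. Of 23 other matrix and crosslinking genes, 14 rose, none fell and 7 rose in both arms, with a median of 0.56. Eln, which encodes elastin, had 203, 430.5 and 1069 CPM in PG-treated lungs and 253, 175 and 139 CPM in saline lungs, with an overlap. It had 351, 457 and 598 CPM in VEA-treated lungs and 159, 248 and 162 CPM in ethanol lungs, with none, and rose by 1.27 ± 0.14 (adjusted p = 1.22e-06). Fn1, fibronectin, rose by 1.26 ± 0.13 (adjusted p = 3.32e-08), and Spp1, osteopontin, by 2.44 ± 0.36 (adjusted p = 3.44e-04). The highest PG-treated lung for Spp1 held 987 CPM against a PG-treated median of 94.1 CPM. Proteases and inhibitors of matrix rose in 8 of 15 genes with no fall, 5 of them in both arms, and a median of 0.85. Igf1, the growth factor that macrophages give to fibroblasts, had 28.7, 84.6 and 163 CPM in PG-treated lungs and 41.4, 29 and 32 CPM in saline lungs. It had 68.3, 94.8 and 101 CPM in VEA-treated lungs and 30.5, 36.9 and 36 CPM in ethanol lungs, and rose by 1.19 ± 0.09 (adjusted p = 2.07e-11), while Igfbp5, an IGF binding protein, fell by 0.77 ± 0.12 (adjusted p = 4.50e-05). Among the 16 fibroblast growth signals as a whole, 3 rose and 4 fell, so that list moved in both directions.

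**Figure D3:**
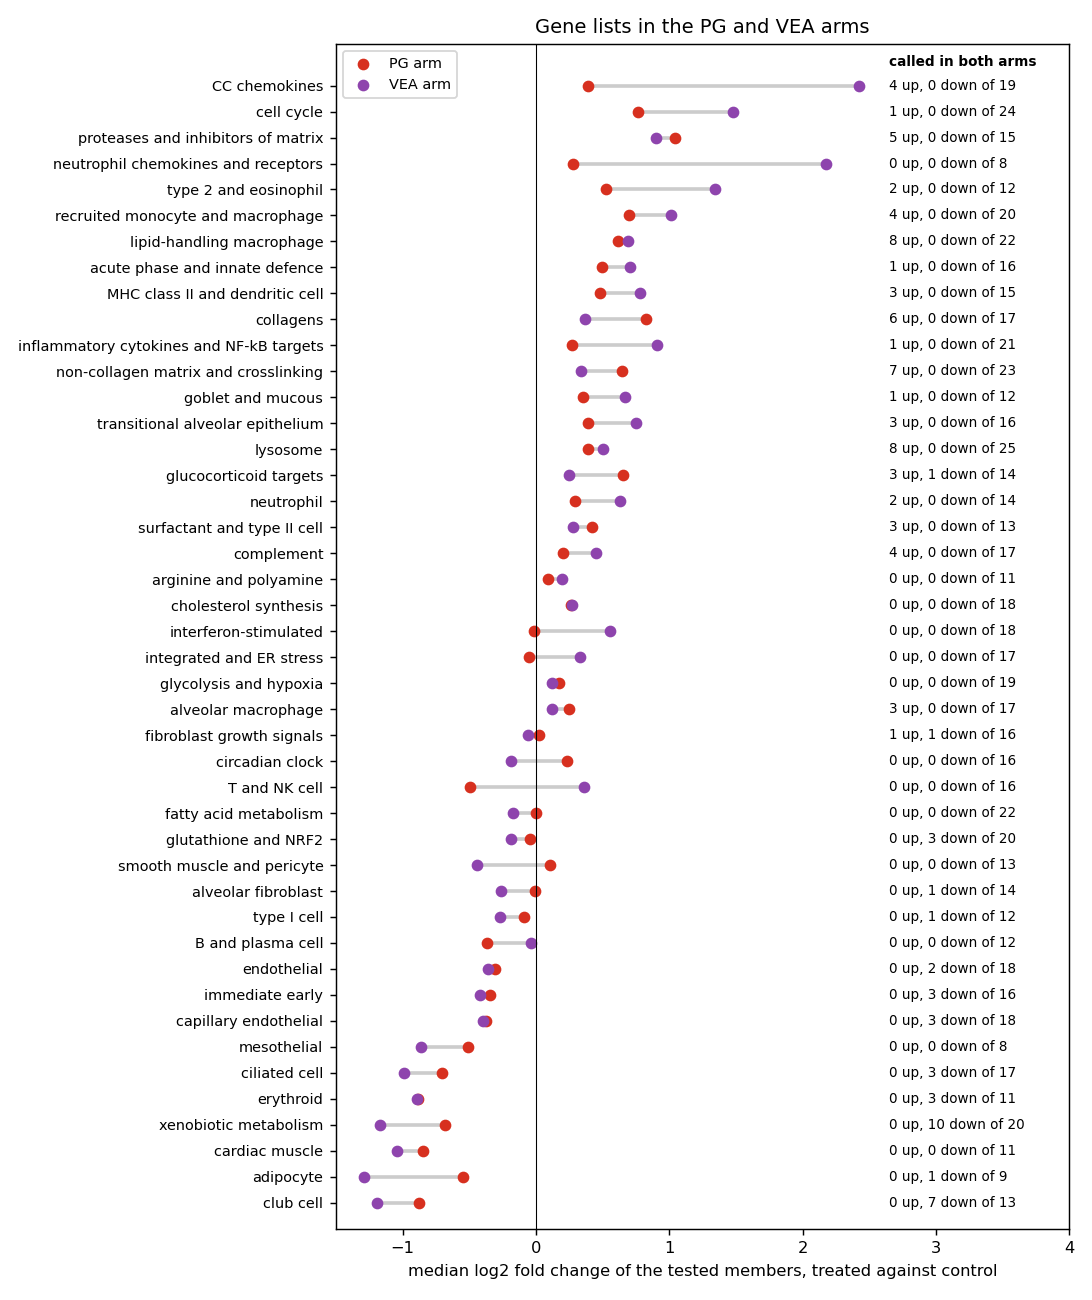
Medians of the log2 fold change over the tested genes of each list are plotted for the PG arm (red) and the VEA arm (purple), ordered by the median of the averaged response, and the counts give genes called in both arms. Matrix, lysosome and lipid-handling macrophage lists lie right of 0 in both arms, and club cell, xenobiotic and ciliated lists lie left of 0.

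Many chemokine and acute phase genes rose in the averaged response. Of 19 CC chemokine ligand and receptor genes, 14 rose and none fell in the averaged response, 4 of them in both arms. The median of that list was 1.38 in the average, 0.39 in the PG arm and 2.42 in the VEA arm, and 6 of the 19 had a called arm difference, all with the higher VEA value. Of 16 acute phase and innate defence genes 8 rose and none fell, 1 of them in both arms, and 1 had a called arm difference. Of 8 neutrophil chemokine and receptor genes, 5 rose and 1 fell, with none called in both arms. Of 14 neutrophil genes 4 rose and 2 did so in both arms. Lcn2, a siderophore-binding protein of neutrophils and injured epithelium, had 72.4, 203 and 635 CPM in PG-treated lungs and 50.9, 71.8 and 78.2 CPM in saline lungs. It had 454, 708 and 1224 CPM in VEA-treated lungs and 69.9, 102 and 69 CPM in ethanol lungs. The PG-treated lungs reached into the saline range and the VEA-treated lungs did not, and the averaged change was 2.50 ± 0.29 (adjusted p = 2.95e-05). The summed level of the 18 neutrophil genes in the files was 494 to 1317 CPM in PG-treated lungs and 380.1 to 772 CPM in saline lungs. These overlapped, with medians of 646 CPM in PG-treated and 650 CPM in saline lungs, so the PG median was not higher. The sum was 949 to 1914 CPM in VEA-treated lungs (median 1395) and 452 to 748 CPM in ethanol lungs (median 541), without overlap. Of 12 type 2 and eosinophil genes 6 rose, and of 15 class II antigen presentation and dendritic genes 9 rose, with no fall in either list. In both arms 2 of the 12 and 3 of the 15 rose, while 6 and 10 rose in the VEA arm. Called arm differences numbered 2 and 1, all with the higher VEA value. Cd74, the invariant chain of class II molecules, rose by 0.95 ± 0.10 (adjusted p = 1.04e-08), and H2-Ab1, a class II chain, by 0.89 ± 0.11 (adjusted p = 2.26e-07). H2-Ab1 was not called in both arms. Cd74 was, but lost that call under 15 of 31 alternatives, and its arm difference was called as well. Of 24 cell cycle genes 19 rose and none fell, with a median of 1.12, yet just 1, Ncapg, a condensin subunit, was called in both arms. Ncapg lost it without saline animal 10 (adjusted p = 0.0675), ethanol animal 12 (adjusted p = 0.189), ethanol animal 14 (adjusted p = 0.152), VEA 3.12 animal 59 (adjusted p = 0.0532) or VEA 6.25 animal 64 (adjusted p = 0.0527). Cdk1, the kinase that drives mitosis, rose by 1.60 ± 0.29 (adjusted p = 0.00135), and its PG-treated lungs held 5.94, 21.2 and 81.5 CPM against 8.19, 11.4 and 6.32 CPM in saline lungs. Its VEA-treated lungs held 20.7, 36.9 and 40.9 CPM against 10.2, 7.34 and 9.71 CPM in ethanol lungs.

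Lymphocyte, interferon, stress and metabolic lists had no gene called in both arms, and their counts in the average stand beside 7.99% of all genes called higher and 7.34% called lower. In T and NK cell genes 1 of 16 rose and none fell, and in B and plasma cell genes 1 of 12 rose and 1 fell. The one T cell rise was Ctla4, an inhibitory receptor, which stayed under 4 CPM in every library and lost its call without any one of saline animals 6 and 8, ethanol animals 12 and 13, PG 826 animal 23, PG 1100 animals 27 and 30, VEA 3.12 animal 59, VEA 6.25 animal 64 and VEA 12.5 animals 66 and 70 (adjusted p between 0.0505 and 0.108). Jchain, which joins secreted antibodies, rose by 1.46 ± 0.28 (adjusted p = 0.00171), and Vpreb3, a B cell gene, fell by 1.14 ± 0.16 (adjusted p = 1.49e-06). Interferon-stimulated genes rose in 3 of 18, cholesterol synthesis genes in 2 of 18, genes of the integrated and ER stress response in 2 of 17, and none of these fell. In fatty acid metabolism 3 of 22 rose and 3 fell (13.6% each way), and in glycolysis and hypoxia 2 of 19 rose and 1 fell.

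The same criteria for naming, which include no overlap in either arm, were met by 50 lower genes. The largest falls among these were in genes of detoxification and of the airway epithelium. Asgr1 (chr11:70048909-70057895), a subunit of the asialoglycoprotein receptor known from liver, had 1.77, 4.36 and 6.90 CPM in PG-treated lungs and 14.5, 26.3 and 32.2 CPM in saline lungs. It had 2.70, 5.66 and 8.81 CPM in VEA-treated lungs and 19, 25.8 and 25.4 CPM in ethanol lungs. The highest treated lung stayed under the lowest control in both arms, and the averaged change was -2.43 ± 0.18 (adjusted p = 4.59e-12), the smallest adjusted p among the falls. Pon1 (chr6:5168090-5193987), an esterase that breaks down oxidised lipids and organophosphates, had 14.1, 39.3 and 52.4 CPM in PG-treated lungs and 81.5, 128 and 149 CPM in saline lungs. It had 23.5, 32.2 and 50.7 CPM in VEA-treated lungs and 108, 167 and 139 CPM in ethanol lungs, again without overlap, for an averaged change of -1.89 ± 0.17 (adjusted p = 4.82e-07). Ces1f (chr8:93256236-93279766), a carboxylesterase with close paralogs whose reads may be shared, had 0.676, 2.78 and 6.14 CPM in PG-treated lungs and 6.51, 6.33 and 7.01 CPM in saline lungs. It had 1.26, 2.05 and 3.55 CPM in VEA-treated lungs and 8.12, 19.2 and 12.1 CPM in ethanol lungs, an averaged change of -1.98 ± 0.25 (adjusted p = 3.06e-07). Of 20 xenobiotic metabolism genes, 14 fell and none rose in the averaged response, 10 of them in both arms, with a median of -0.92. Cyp1a1, the P450 induced by aryl hydrocarbons, had 4.06, 55.3 and 44 CPM in ethanol lungs, so its controls themselves were widely spread. Its averaged change was -2.66 ± 0.42 (adjusted p = 3.45e-04), and it was not called in both arms.

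Club cell genes fell in 8 of 13 with no rise, 7 of them in both arms, and the median of that list was -0.96. Gsta3 (chr1:21240565-21265575), a glutathione transferase of club cells with close paralogs, had 52.4, 126 and 145 CPM in PG-treated lungs and 178, 220.0 and 252 CPM in saline lungs. It had 61.9, 90.8 and 106 CPM in VEA-treated lungs and 214, 282 and 234 CPM in ethanol lungs, without overlap, and fell by 1.28 ± 0.10 (adjusted p = 4.03e-11). Cyp2f2, the main P450 of mouse club cells, had 550.4, 1490.2 and 1864 CPM in PG-treated lungs and 2387, 2167 and 2540.2 CPM in saline lungs. It had 833, 1002 and 1281 CPM in VEA-treated lungs and 2523, 3237 and 2019 CPM in ethanol lungs, and fell by 1.11 ± 0.11 (adjusted p = 9.38e-08). Cyp4b1, a fatty acid P450 listed for both club and capillary cells, fell by 1.17 ± 0.10 (adjusted p = 1.44e-10). Scgb1a1, the secretory protein that defines club cells, was among the 7 lower in both arms, whereas Scgb3a1, Scgb3a2, Hp and Bpifa1 were not called in the average. The summed level of the 14 club cell genes in the files was 28123 to 53089 CPM in PG-treated lungs and 60824 to 83529 CPM in saline lungs. It was 31980 to 41232 CPM in VEA-treated lungs and 58662 to 82488 CPM in ethanol lungs, and neither arm overlapped. Since the most abundant genes weigh most in this sum, it does not speak for each gene of the list. Of 20 glutathione and NRF2 genes, which include Gsta3, 7 fell and 2 rose, with 3 lower in both arms.

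Ciliated cell genes fell in 14 of 17 with no rise, 3 of them in both arms (Dnah5, Dnaic1 and Tmem212), with a median of -0.84. Their summed level was 154 to 237 CPM in PG-treated lungs and 248 to 354 CPM in saline lungs. It was 140.3 to 196 CPM in VEA-treated lungs and 230.3 to 344 CPM in ethanol lungs. Spag16 (chr1:69826872-70725132), a protein of the central pair of cilia, had 1.57, 2.25 and 3.83 CPM in PG-treated lungs and 5.72, 6.09 and 6.81 CPM in saline lungs. It had 1.65, 2.27 and 3.73 CPM in VEA-treated lungs and 6.81, 5.29 and 6.58 CPM in ethanol lungs, without overlap, and fell by 1.29 ± 0.25 (adjusted p = 3.31e-04). Dnaic1, a dynein chain that powers ciliary beating, fell by 1.21 ± 0.21 (adjusted p = 5.05e-05), and Rsph4a, a radial spoke protein, by 1.23 ± 0.20 (adjusted p = 2.71e-05). Cdhr3, a cadherin of ciliated cells known in human airways as a rhinovirus receptor, fell by 1.21 ± 0.16 (adjusted p = 1.20e-06). Iqca fell by 1.24 ± 0.17 (adjusted p = 1.51e-06), Ccdc154 by 1.18 ± 0.24 (adjusted p = 7.18e-04) and Gfra1, a receptor subunit for the growth factor GDNF, by 1.17 ± 0.17 (adjusted p = 3.91e-06). Among the leading falls, of the calls in both arms, Ces1f lost it without saline animal 6 (adjusted p = 0.0608), saline animal 8 (adjusted p = 0.0912), saline animal 10 (adjusted p = 0.113), PG 826 animal 23 (adjusted p = 0.0769), PG 826 animal 25 (adjusted p = 0.0765), PG 1100 animal 27 (adjusted p = 0.0829) or PG 1100 animal 28 (adjusted p = 0.0585), Iqca lost it without saline animal 10 (adjusted p = 0.225) or PG 826 animal 25 (adjusted p = 0.0535), Cdhr3 lost it without saline animal 10 (adjusted p = 0.117) and Dnaic1 lost it without saline animal 8 (adjusted p = 0.0751), saline animal 10 (adjusted p = 0.0988), ethanol animal 13 (adjusted p = 0.0936), PG 826 animal 25 (adjusted p = 0.0524) or PG 1100 animal 27 (adjusted p = 0.0517), and Spag16 lost its call in both arms without any one of saline animals 6, 8 and 10, ethanol animals 12 and 14, PG 826 animals 23 and 25, PG 1100 animals 27 and 28, VEA 3.12 animal 57 and VEA 12.5 animals 66, 68 and 70 (adjusted p between 0.0512 and 0.161) and Ccdc154 lost its call in both arms without any one of saline animals 6, 8 and 10, ethanol animals 12 and 13, PG 826 animals 22 and 23, PG 1100 animals 27 and 30, VEA 3.12 animal 59 and VEA 12.5 animal 68 (adjusted p between 0.0501 and 0.262).

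Alveolar epithelium moved in several directions. Of 13 surfactant and type II cell genes, 8 rose and none fell, 3 of them in both arms, with a median of 0.36. Sftpd, the collectin surfactant protein D, had 1400.4, 1998 and 3508 CPM in PG-treated lungs and 1104, 1430.0 and 1347 CPM in saline lungs. It had 2154, 2871 and 3527 CPM in VEA-treated lungs and 1283, 1283 and 1251 CPM in ethanol lungs, and rose by 0.95 ± 0.10 (adjusted p = 3.29e-09). Muc1, a membrane mucin, rose by 0.81 ± 0.09 (adjusted p = 1.04e-08). The summed level of the list overlapped in both arms. It was 30188 to 60200.4 CPM in PG-treated lungs (median 35908) and 29333 to 40643 CPM in saline lungs (median 36458). It was 28707 to 37334 CPM in VEA-treated lungs (median 30985) and 28970 to 33261 CPM in ethanol lungs (median 29357). Transitional alveolar epithelium genes rose in 9 of 16, and 3 rose in both arms. Lgals3, a galectin of this list, rose by 0.92 ± 0.09 (adjusted p = 3.68e-09). It is also in the lipid-handling macrophage list, and Lcn2 of this list is also in the neutrophil list. Which cells carried these rises was not tested. Type I cell genes fell in 5 of 12 and rose in 2, and Hopx, a regulator of those cells, fell by 0.65 ± 0.09 (adjusted p = 8.48e-07). Hopx was the 1 gene of that list lower in both arms, and it lost that call under 17 of 31 alternatives. Goblet and mucous genes rose in 5 of 12 and fell in 1, with 1 higher in both arms. Slc26a4, the anion exchanger pendrin, had 2.29, 6.73 and 15.1 CPM in PG-treated lungs and 1.09, 0.487 and 2.72 CPM in saline lungs, and 1 saline lung lay above the lowest PG-treated lung. It had 20.0, 35.7 and 56.3 CPM in VEA-treated lungs and 1.32, 0.864 and 0.324 CPM in ethanol lungs, and rose by 3.63 ± 0.25 (adjusted p = 4.59e-12).

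Endothelial lists held falls and no rise in the averaged response. General endothelial genes fell in 8 of 18 and capillary genes in 11 of 18, with 2 and 3 lower in both arms and medians of -0.33 and -0.39. Kdr, the main VEGF receptor, had 98.3, 198 and 273 CPM in PG-treated lungs and 357, 243 and 259 CPM in saline lungs. It had 137, 164 and 199 CPM in VEA-treated lungs and 267, 277 and 369 CPM in ethanol lungs, and fell by 0.77 ± 0.09 (adjusted p = 6.91e-08). Its PG-treated lungs overlapped saline and its VEA-treated lungs did not overlap ethanol. Clec14a, an endothelial lectin, fell by 0.61 ± 0.07 (adjusted p = 2.25e-07) and Tek, the angiopoietin receptor, by 0.59 ± 0.08 (adjusted p = 2.42e-06). Alveolar fibroblast genes fell in 5 of 14 (35.7%, against 7.34% of all genes tested) and rose in 1, with 1 lower in both arms. Of 13 smooth muscle and pericyte genes 1 fell (7.69%), which is near that share, and 4 were lower in the VEA arm and 1 higher in the PG arm. Inmt, a methyltransferase of alveolar fibroblasts, fell by 0.73 ± 0.08 (adjusted p = 3.90e-08). Immediate early genes, induced within minutes of a stimulus, fell in 9 of 16 and rose in 2, with 3 lower in both arms. Dusp1, a phosphatase of that class, had 31.2, 53.4 and 88.3 CPM in PG-treated lungs and 126, 109.7 and 108 CPM in saline lungs. It had 53.4, 67 and 80.0 CPM in VEA-treated lungs and 119, 104 and 175 CPM in ethanol lungs, and fell by 1.05 ± 0.10 (adjusted p = 2.65e-09). Of 14 glucocorticoid targets 7 rose and 2 fell, with 3 higher and 1 lower in both arms. Fkbp5, the target among the leading rises, had 17.4, 26.8 and 28 CPM in PG-treated lungs and 3.16, 9.25 and 5.25 CPM in saline lungs. It had 17.4, 22.5 and 26.2 CPM in VEA-treated lungs and 7.68, 9.83 and 11.2 CPM in ethanol lungs, without overlap.

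Markers of tissues that a lung sample can carry along also differed between the groups. All 11 erythroid genes fell in the averaged response, 3 of them in both arms, with a median of -0.88, and haemoglobin genes share near-identical sequence. Cardiac muscle genes fell in 5 of 11 with none in both arms, and their summed level was 148 to 251 CPM in PG-treated lungs and 267 to 397 CPM in saline lungs. It was 81.3 to 259 CPM in VEA-treated lungs and 170.1 to 428 CPM in ethanol lungs. Mesothelial genes fell in 5 of 8 and adipocyte genes in 2 of 9, with none rising. No mesothelial gene was called in both arms. The part of these tissues in the other falls was not tested. No marker of the cardiac, erythroid or mesothelial lists was at 0 in every library of a side.

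Starts of 4 genes called in both arms are shown so that the promoter behind a shared change can be read. Each gives the 250 bases before a start site listed in the RefSeq promoter table for GRCm38.p6, 5′ to 3′ on the gene's strand, and capitals mark the sole match to the C/EBP motif TTGCNNAA on either strand. The 4 were chosen after the windows had been searched because each holds such a match. Retnla and Ctsk rose and Pon1 and Gsta3 fell. For Pon1 and Gsta3 that start lies inside the gene span printed above, so their windows overlap the outer end of the gene. The windows are chr16:48842359-48842608 (plus strand) for Retnla, chr3:95498960-95499209 (plus strand) for Ctsk, chr6:5193947-5194196 (minus strand) for Pon1 and chr1:21240335-21240584 (plus strand) for Gsta3.
Retnla: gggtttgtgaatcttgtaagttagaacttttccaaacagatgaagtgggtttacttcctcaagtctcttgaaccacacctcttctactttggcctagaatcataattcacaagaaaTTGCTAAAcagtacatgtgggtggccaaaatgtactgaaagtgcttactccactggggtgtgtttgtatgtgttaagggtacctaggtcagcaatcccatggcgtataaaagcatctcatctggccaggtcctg
Ctsk: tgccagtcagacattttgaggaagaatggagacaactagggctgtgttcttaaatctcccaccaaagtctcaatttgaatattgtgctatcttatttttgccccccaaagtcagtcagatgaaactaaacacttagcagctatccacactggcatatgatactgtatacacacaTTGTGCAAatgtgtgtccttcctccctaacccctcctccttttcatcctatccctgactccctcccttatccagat
Pon1: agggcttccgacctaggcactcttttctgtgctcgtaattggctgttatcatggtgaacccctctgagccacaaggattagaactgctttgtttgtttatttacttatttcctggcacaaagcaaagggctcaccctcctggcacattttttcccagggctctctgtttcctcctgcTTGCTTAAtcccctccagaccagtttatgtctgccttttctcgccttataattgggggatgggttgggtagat
Gsta3: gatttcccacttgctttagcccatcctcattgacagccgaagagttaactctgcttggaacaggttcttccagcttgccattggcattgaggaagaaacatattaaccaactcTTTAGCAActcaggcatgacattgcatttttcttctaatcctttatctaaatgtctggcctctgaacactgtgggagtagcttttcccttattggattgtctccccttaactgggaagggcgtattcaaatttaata
Of 11656 tested genes with a window, 7.83% held the motif. Windows matched 101 of the 136 genes higher in both arms (74.3%), so a comparison of motif shares was void, and the match is a description of these letters and not of binding.

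The doses that make up the averages are set side by side here, and no test between doses was run. Changes at the doses of an agent are not independent of each other, because they share their control lungs. Retnla changed by 2.06 at PG 826, 3.24 at PG 1100, 2.78 at VEA 3.12, 3.02 at VEA 6.25 and 3.34 at VEA 12.5. For Asgr1 the changes were -1.99 and -3.24 at the PG doses and -1.66, -2.06 and -3.01 at the VEA doses. Tnc changed by 1.66 and 3.73 at the PG doses and by 1.34, 1.68 and 1.58 at the VEA doses. Ctsk changed by 0.82 and 2.11 at the PG doses and by 3.48, 3.31 and 3.72 at the VEA doses. The largest value of Tnc was at PG 1100, and that of Ctsk was at VEA 12.5. With PG 1100 as the sole PG group, 305 genes were higher and 225 lower in both arms.

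**Figure D4:**
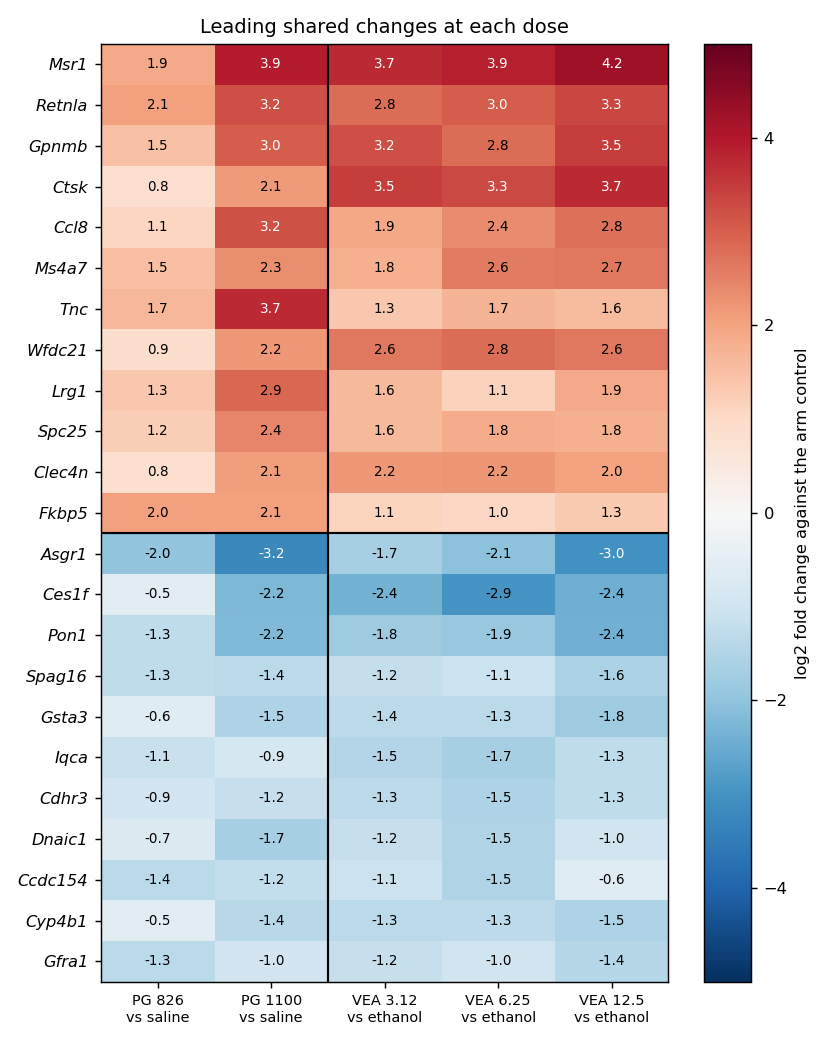
Rows are the 12 leading rises and 11 of the leading falls called in both arms, columns are the 5 dose groups against their own control, and the number in each cell is the log2 fold change. Among the rises, PG 826 holds the smallest value of its row except for Tnc, Lrg1 and Fkbp5.

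Few genes were called different between the arms by the test of the difference itself. The VEA arm's change exceeded the PG arm's for 40 genes (0.272%) and fell below it for 10 genes (0.0679%), together 50 genes (0.34%). An unadjusted p below 0.05 was held by 1296 of the 14727 genes tested. That is a larger share than the 0.05 expected with no difference, so genes not called may still differ between the arms. Of the 246 genes called in both arms 7 had a called arm difference. Saa3, an acute phase apolipoprotein, had 241, 719.8 and 1447 CPM in VEA-treated lungs, 2.52, 8.21 and 7.44 CPM in ethanol lungs, 2.29, 20.1 and 39 CPM in PG-treated lungs and 2.66, 7.55 and 5.84 CPM in saline lungs. Its arm difference was 5.26 ± 0.90 (adjusted p = 0.0177). Cxcl1, a neutrophil chemokine, had 13.6, 17.5 and 42.8 CPM in VEA-treated lungs, 0.22, 0.432 and 0.863 CPM in ethanol lungs, 0.657, 1.02 and 3.67 CPM in PG-treated lungs and 1.38, 2.80 and 0.876 CPM in saline lungs. Its arm difference was 5.45 ± 0.63 (adjusted p = 3.66e-06), and it was not called in the PG arm (adjusted p = 0.897). Slc26a4, called in both arms, differed by 3.41 ± 0.53 (adjusted p = 4.37e-04). The call of the arm difference ended for Saa3 without saline animal 8 (adjusted p = 0.107), saline animal 10 (adjusted p = 0.0665) or ethanol animal 14 (adjusted p = 0.0566) and for Slc26a4 without saline animal 10 (adjusted p = 0.0541), and with the vehicles exchanged between the arms 16 of 18 named arm differences were no longer called, Saa3 and Tnfrsf9 being the exceptions.

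**Figure D5:**
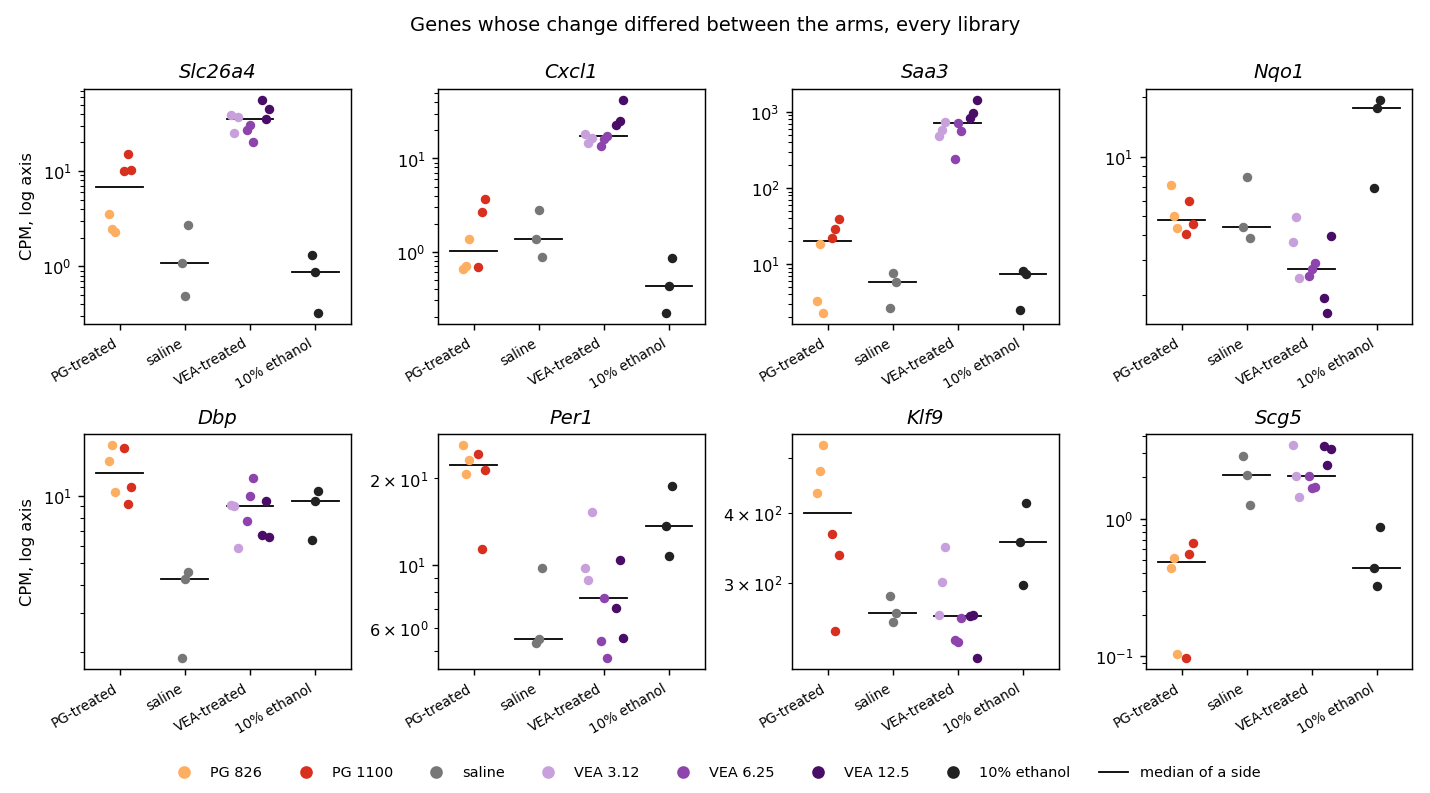
Each point is a library, in CPM, for genes whose response differed between the arms, with treated lungs left of their controls. For Dbp and Per1 the ethanol lungs all lie above the saline lungs, and for Nqo1 the 2 control groups overlap.

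The 3 genes called in opposite directions (0.0204%) were Klf9, Per1 and Scg5. Per1, a clock gene also induced by glucocorticoids, had 11.3, 22.3 and 26.2 CPM in PG-treated lungs and 5.33, 5.48 and 9.73 CPM in saline lungs. It had 4.70, 7.65 and 15.3 CPM in VEA-treated lungs and 13.6, 10.7 and 18.8 CPM in ethanol lungs. The treated lungs of the arms overlapped each other, and the ethanol lungs all stood above the saline lungs. With the vehicles exchanged between the arms the arm difference of Per1 was -0.34 (adjusted p = 0.837), against -2.46 ± 0.37 (adjusted p = 3.10e-04) with each arm's own vehicle. Klf9, a further glucocorticoid-induced factor, was 0.53 ± 0.13 in the PG arm (adjusted p = 0.0145) and -0.43 ± 0.11 in the VEA arm (adjusted p = 0.0104). Scg5, a secretory granule chaperone, stayed under 4 CPM in all libraries and was -2.35 ± 0.65 in the PG arm and 2.07 ± 0.70 in the VEA arm.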

How the data were processed

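Lung RNA of 21 mice was measured with 500 ng of total RNA in each Lexogen QuantSeq library, per the labels. Each library has a deposited file of raw counts by gene symbol, made by the authors, with 23282 rows for 23238 symbols. Rows were added up for the 35 symbols that appear more often than once. Bowtie2, bedtools and the assembly mm10 are named in the submitters' processing notes, with versions not given in the sources used here, as is also the case for the annotation and the strand used in counting. Overlapping, antisense and paralogous genes are therefore uncertain.

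Counts were fitted with edgeR 4.0.16 in R 4.3.3 (the data.table package, version 1.17.8, read the files). filterByExpr by group left 14727 genes, TMM factors scaled the libraries, and all contrasts came from a single robust quasi-likelihood fit of the group means, with 14 residual degrees of freedom and a biological coefficient of variation of 23.8%. SE is the absolute log2 fold change over the square root of its F statistic. Each library came from a different animal, and p-values measure the spread between animals.

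The contrasts and 44 gene lists (679 symbols, 675 in the files) were chosen with earlier results of these data known. Named were the 12 largest changes each way and the smallest p each way among genes called in both arms and in the average, with a mean of at least 5 CPM on the higher side and no overlap in either arm. Up to 4 called members per list, the 5 largest arm differences each way, and genes opposite in the arms were named too. Unnamed gene models and small RNA symbols were left out of the naming. Some genes that met the rule are not reported here. Other genes given to spell out a count were picked after their values were seen. Sequences and positions come from RefSeq tables for GRCm38.p6. Scripts were tested on simulated data. Alternatives were DESeq2 1.42.0, limma-voom (limma 3.58.1), RLE factors, other filters, doses, weights and controls, and leaving out each library. The results as given use every library.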

Additional observations from a re-analysis of the deposited data

Results flagged for a closer look

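For 18 named genes the VEA arm's change differed from the PG arm's by the test of that difference (edgeR, adjusted p below 0.05, log2 scale, VEA minus PG). Among genes with the higher VEA value were the chemokines Ccl3 at 8.01 ± 1.68 (adjusted p = 0.045), Cxcl1 at 5.45 ± 0.63 (adjusted p = 3.66e-06) and Ccl22 at 2.34 ± 0.52 (adjusted p = 0.0259). Over all ethanol lungs Ccl3 had a single count and Rgs16 had none, so their fitted sizes are no measure of fold. Rgs16, a regulator of G protein signalling, was at 7.29 ± 1.66 (adjusted p = 0.0373) and Saa3 at 5.26 ± 0.90 (adjusted p = 0.0177). Tnfrsf9, a costimulatory receptor, stood at 2.97 ± 0.46 (adjusted p = 3.87e-04), Slc26a4 at 3.41 ± 0.53 (adjusted p = 4.37e-04), and Mmp8, a neutrophil collagenase, at 2.0 ± 0.38 (adjusted p = 0.00437). Atf3, a stress-induced factor, stood at 1.83 ± 0.38 (adjusted p = 0.0144) and Cd74 at 0.89 ± 0.19 (adjusted p = 0.0194). Scg5, called in opposite directions, stood at 4.43 ± 0.97 (adjusted p = 0.0215).

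Lower in the VEA arm than in the PG arm were Nqo1, a quinone reductase, at -2.27 ± 0.48 (adjusted p = 0.0177), and Ces1g, a carboxylesterase with close paralogs, at -1.95 ± 0.45 (adjusted p = 0.0383). Car14, a carbonic anhydrase, stood at -1.05 ± 0.24 (adjusted p = 0.0398). The clock genes Dbp, Nr1d2 and Per1 stood at -1.93 ± 0.40 (adjusted p = 0.0127), -1.24 ± 0.29 (adjusted p = 0.0452) and -2.46 ± 0.37 (adjusted p = 3.10e-04), and Klf9 at -0.96 ± 0.17 (adjusted p = 0.00193). The ethanol lungs all lay above the saline lungs for Dbp, while the control groups overlapped for Nqo1 and Car14. Nqo1 had 4.44, 7.91 and 3.89 CPM in saline lungs and 6.92, 17.6 and 19.4 CPM in ethanol lungs. Dbp had 1.87, 4.26 and 4.57 CPM in saline lungs and 6.37, 9.50 and 10.6 CPM in ethanol lungs, and Car14 had 36.7, 29.5 and 37.9 CPM in saline lungs and 35.3, 72.1 and 53.4 CPM in ethanol lungs. No test separates the vehicle from the agent in these values.

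None of the 18 arm differences was called under every alternative. Cxcl1, Tnfrsf9, Mmp8, Per1 and Klf9 kept the call with each library left out in turn, and the other 13 lost it without at least 1 library. Ccl3 lost it without any one of saline animals 6 and 8, ethanol animals 12, 13 and 14, PG 1100 animal 27, VEA 3.12 animals 57 and 59, VEA 6.25 animals 63, 64 and 65 and VEA 12.5 animals 66 and 68 (adjusted p between 0.0514 and 0.338), Rgs16 without any one of saline animals 8 and 10, ethanol animals 12, 13 and 14, VEA 3.12 animal 56, VEA 6.25 animal 64 and VEA 12.5 animal 70 (adjusted p between 0.052 and 0.296), Ccl22 without any one of saline animals 6 and 8, ethanol animals 12, 13 and 14 and VEA 6.25 animal 64 (adjusted p between 0.0566 and 0.107) and Scg5 without any one of saline animals 6 and 8, ethanol animals 12, 13 and 14, VEA 3.12 animal 56 and VEA 12.5 animals 66 and 70 (adjusted p between 0.0519 and 0.108). Atf3 lost it without any one of ethanol animals 13 and 14 (adjusted p between 0.0566 and 0.0617) and Cd74 without any one of saline animal 6 and ethanol animals 13 and 14 (adjusted p between 0.0713 and 0.102). Among genes with the lower VEA value, Nqo1 lost it without any one of saline animals 6 and 10 and ethanol animals 13 and 14 (adjusted p between 0.0517 and 0.116), Dbp without any one of saline animal 6 and ethanol animal 14 (adjusted p between 0.0519 and 0.0657) and Car14 without any one of saline animals 8 and 10, ethanol animals 13 and 14, PG 826 animal 25, PG 1100 animal 27, VEA 3.12 animals 56 and 57, VEA 6.25 animal 64 and VEA 12.5 animals 66 and 70 (adjusted p between 0.0541 and 0.29). Ces1g lost it without any one of saline animals 6, 8 and 10, ethanol animals 13 and 14, PG 826 animals 22 and 23, PG 1100 animal 27, VEA 6.25 animals 63 and 64 and VEA 12.5 animals 66 and 68 (adjusted p between 0.0524 and 0.174) and Nr1d2 without any one of saline animals 6 and 8, ethanol animals 13 and 14, PG 826 animal 23, PG 1100 animal 27, VEA 3.12 animals 57 and 59, VEA 6.25 animals 63 and 64 and VEA 12.5 animals 66, 68 and 70 (adjusted p between 0.06 and 0.239). Saa3 and Slc26a4 are given with their libraries in the results.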

How the results depend on the processing

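Counts of the averaged response stayed within 1.5 times of those reported under every alternative but a minimum absolute log2 fold change of 1, which left 295 higher and 160 lower genes. That minimum also left 93 higher and 47 lower genes in the PG arm, 376 and 190 in the VEA arm, and 43 and 19 in both arms. DESeq2 called 258 lower genes in the PG arm and 76 higher and 33 lower arm differences, and limma-voom called 19 and 4 arm differences. Without the low-count filter there were 375 higher and 277 lower genes in the PG arm, 153 and 93 arm differences, and 220 and 183 genes called in both arms. Leaving out the 3 libraries lowest in detected genes gave 117 and 81 in the PG arm, 592 and 471 in the VEA arm, 19 and 3 arm differences, and 82 and 52 in both arms. With PG 1100 as the sole PG dose there were 602 and 475 in the PG arm, 24 and 23 arm differences, and 305 and 225 in both arms, and with the highest dose of each agent alone 602 and 475 in the PG arm, 20 higher arm differences, and 304 and 216 in both arms. Each arm fitted alone gave 88 and 84 in the PG arm and 70 and 64 in both arms. Some of these alternatives removed samples or doses, and calls then went down in some and up in others. The cause of these shifts was not tested.

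Leaving out each library in turn gave 941 to 1215 higher and 846 to 1109 lower genes in the averaged response, 97 to 297 and 67 to 228 in the PG arm, and 567 to 1008 and 445 to 910 in the VEA arm. It gave 25 to 84 and 3 to 35 arm differences, and 74 to 172 and 52 to 148 genes called in both arms. The PG arm had 97 and 67 without saline animal 8, 117 and 73 without saline animal 10, 157 and 100 without PG 826 animal 23, and 107 lower genes without PG 1100 animal 28. The VEA arm had 567 and 445 without ethanol animal 13, and 524 and 533 lower genes without ethanol animals 12 and 14. Arm differences moved by over 1.5 times without saline animals 6 (23 lower) and 8 (25 and 6), ethanol animals 13 (3 lower) and 14 (25 and 5), PG 1100 animals 28 (84 and 35) and 30 (17 lower), and VEA animals 64 and 66 (6 lower each).

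Of 162 named genes, 40 lost their call in the averaged response under some alternative, and of 60 called in both arms 31 lost that call. All 18 named arm differences lost theirs under some alternative, 12 with limma-voom and 12 without ethanol animal 14. With the vehicles exchanged between the arms, the averaged contrast is the same by construction. There 149 higher and 111 lower genes were called in both arms, of which 92 and 79 were among those reported. The arm difference reversed for Nqo1 (0.61), Dbp (0.68), Rgs16 (-2.65), Ces1g (0.62), Nr1d2 (0.18) and Car14 (0.20), none of them called there. Klf9 and Scg5, not called in the average, changed sign under other alternatives. Klf9 was at -0.027 without the 3 libraries, -0.10 with PG 1100 alone, -0.14 at the highest doses, -0.044 with equal dose weights and -0.0046 to 0.12 with single libraries left out. Scg5 was at 0.11 at the highest doses, 0.30 with equal dose weights and -0.27 to 0.11 with single libraries left out. List medians moved by more than the spread between libraries for 10 lists with PG 1100 alone, and none changed sign. No paired analysis was possible because the animal numbers are all different and the groups share none. Genes under about 5 CPM rest on few counts, which limits what can be said of them.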

Other observations

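Clock genes did not move one way in the averaged response: 4 of 16 rose and 3 fell, none was called in both arms in the same direction, and 3 had a called arm difference, all with the lower VEA value. Arntl, the core activator of the clock, had 3.40, 7.54 and 9.91 CPM in PG-treated lungs and 15.4, 12.5 and 15.5 CPM in saline lungs. It had 4.38, 7.17 and 11.9 CPM in VEA-treated lungs and 14.2, 9.07 and 13.5 CPM in ethanol lungs, and its averaged change was -0.86 ± 0.18 (adjusted p = 9.59e-04). Bhlhe41, a repressor of the same loop, changed by 0.86 ± 0.20 (adjusted p = 0.00252), and Hlf, an output factor, by -0.71 ± 0.17 (adjusted p = 0.00276). The hours at which animals were killed are not given in the labels, so time of day was not tested.

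In the adipocyte list 2 of 9 genes fell and none rose, and in fatty acid metabolism 3 of 22 rose and 3 fell. Plin2, which coats lipid droplets in many cells, changed by 0.40 ± 0.09 (adjusted p = 0.00217), while Cidec changed by -0.80 ± 0.15 (adjusted p = 1.82e-04) and Fabp1, a fatty acid binding protein known from liver, by -1.31 ± 0.24 (adjusted p = 5.48e-04). Cox8b, a mitochondrial subunit of brown fat and muscle, had 1.66, 4.73 and 8.44 CPM in PG-treated lungs and 8.29, 16.1 and 19.1 CPM in saline lungs. It had 3.17, 6.07 and 9.82 CPM in VEA-treated lungs and 13.4, 13.9 and 14.3 CPM in ethanol lungs, and was the adipocyte gene called in both arms, at -1.49 ± 0.22 (adjusted p = 4.32e-06).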
